A study of Mus musculus with 77 samples.

Results

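Somatic cell nuclear transfer (SCNT) gave the 4-cell embryos compared here, in 2 sets: cells with profile names starting mEmb04C, and cells with names starting DEP_01_162 or DEP_01_164. They comprised 28 of the 77 cells of the study, namely 12 mEmb04C cells from 7 embryos and 16 DEP cells from 7 embryos (6 cells of 3 embryos named DEP_01_162 and 10 cells of 4 embryos named DEP_01_164). The study profiled DNA replication in single blastomeres of 4-cell and 8-cell SCNT embryos by scRepli-seq, in which copy number along the genome of a cell in S phase is read as replicated or not yet replicated. In both sets the strain is BDF1, the embryos developed in vitro and the treatment is SCNT, so that no embryo of these groups came from fertilisation. The labels name neither the donor cell type nor any difference in handling between the sets. In the authors' cell table each set lies in a batch of its own, so set and batch cannot be told apart.

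Replication timing is the order in which parts of the genome are copied during S phase. In most mammalian cells large domains of active chromatin are copied early and compact, gene-poor domains late. In SCNT the nucleus of a somatic cell is placed in an oocyte that has lost its own, and the cleavage divisions that follow start from a somatic genome.

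The unit of comparison was the embryo, with the cells of an embryo averaged, because sister cells share their origin. Embryos carry the numbers of the authors' table: 1 to 3 are DEP_01_162, 4 to 7 are DEP_01_164 and 8 to 14 are mEmb04C. The labels do not say whether embryos came from separate experiments, so p-values measure the spread between these embryos only. Every profile gave each bin of 80 kb as replicated, not replicated or not called, and the replicated percent is the share of replicated bins among called bins. Called bins numbered 29285 to 29704 per mEmb04C cell and 27057 to 29849 per DEP cell. Read depth was unknown, so no counting interval could be given. Profiles were compared in mid-S cells, those with 30 to 70% of autosomal bins replicated, which were 10 mEmb04C cells of 5 embryos and 8 DEP cells of 4 embryos.

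More autosomal bins were called replicated in the DEP embryos than in the mEmb04C embryos, read here as a position further into S phase. The mEmb04C embryos 8 to 14 had 12.6, 52.6, 54.9, 46.9, 75.0, 49.9 and 38.2% of autosomal bins replicated, with a mean of 47.2% ± 18.9 (SD, n = 7). The DEP embryos 1 to 7 had 62.01, 87.9, 60.9, 92.5, 93.6, 68.5 and 68.5%, with a mean of 76.3% ± 14.5 (SD, n = 7). Among mEmb04C embryos, embryo 12 alone lay within the DEP range. The difference of 29.1 percentage points had p = 0.00583 in a two-sided exact permutation test of embryo labels. Without DEP embryos 4 and 5, whose 4 cells had 0 to 3.25 changes of state per 1000 called bins, the difference was 22.4 points (exact permutation p = 0.0253). Cell c of embryo 6, with 0.304 changes of state per 1000 called bins, was kept there. Among mid-S embryos the sets did not overlap in replicated percent, with 38.2 to 54.9% in mEmb04C and 56.5 to 68.5% in DEP. To set cells at like positions in S phase side by side, cells of 55 to 63% were also compared, a range chosen after the percents had been seen. It held 4 mEmb04C cells of 3 embryos (mean of embryos 58.2% ± 3.06, SD) and 5 DEP cells of 3 embryos (58.6% ± 2.19). With 3 embryos against 3 the exact test cannot go below p = 0.1.

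The sets differed in the parts of the genome that replicate late at the 8-cell stage, which were replicated further in DEP embryos. The 8-cell order came from 28 mid-S 8-cell cells of 10 embryos, none of them 4-cell cells but all carrying DEP titles, so this order shares its title sets with the DEP side of the comparison. It gave 9902 bins as late (replicated in at most 20% of those cells) and 9779 as early (in at least 80%). In late bins, the mEmb04C embryos 9, 10, 11, 13 and 14 had 8.09, 16.3, 10.4, 14.2 and 11.8% replicated. The DEP embryos 1, 3, 6 and 7 had 44.6, 26.7, 37.2 and 29.8% there. Every DEP embryo was above every mEmb04C embryo. The means were 12.2% ± 3.19 (SD, n = 5) and 34.6% ± 8.02 (SD, n = 4), and the difference of 22.4 points had p = 0.0159, the smallest value that the exact permutation test of 5 against 4 embryos allows. The test made no adjustment for position in S phase, in which the mid-S embryos of the sets do not overlap. Within mEmb04C, late bins ran from 5.12% in a cell at 38.7% replicated to 22.4% in a cell at 61.9%.

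The late bins also differed in cells at like positions in S phase. In cells of 55 to 63%, late bins were 15.7 to 22.4% replicated in the mEmb04C cells and 25.9 to 38.5% in the DEP cells. By embryo the means were 18.3% ± 2.79 (SD, n = 3) and 33.9% ± 6.26 (SD, n = 3), a difference of 15.6 points without overlap (exact permutation p = 0.1). Widening the mid-S range to 20 to 80% brought in mEmb04C embryo 12, whose late bins were 49.7% replicated, and the difference was then 18.4 points (exact permutation p = 0.0952).

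**Figure D1:**
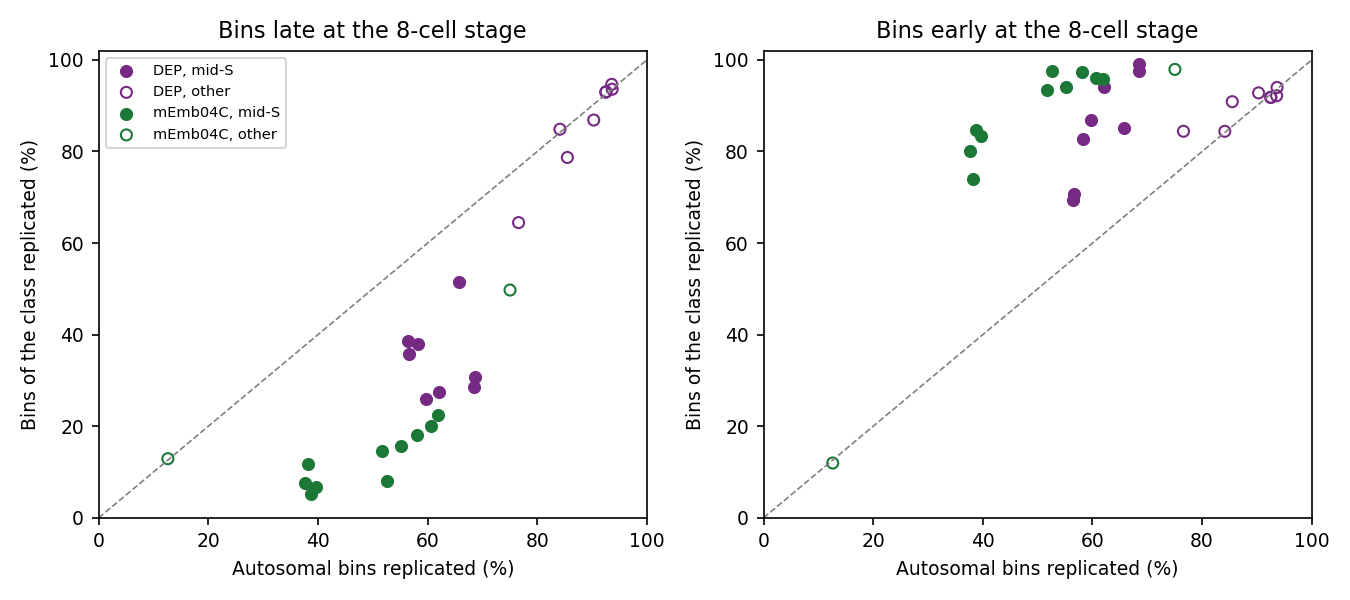
Replicated percent of the bins late (left) and early (right) at the 8-cell stage, against the replicated percent of all autosomal bins, 1 point per 4-cell cell; filled points are mid-S cells and the dashed line marks equal percents. Mid-S mEmb04C cells lie at 5.12 to 22.4% and mid-S DEP cells at 25.9 to 51.4% in late bins, while the early bins of the sets overlap.

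Over all mid-S embryos the early bins overlapped between the sets. They were 97.5, 95.5, 89.4, 88.8 and 74.1% replicated in mEmb04C embryos 9, 10, 11, 13 and 14, and 83.9, 90.5, 70.1 and 98.3% in DEP embryos 1, 3, 6 and 7. The means were 89.1% ± 9.20 (SD, n = 5) and 85.7% ± 11.97 (SD, n = 4), with a difference of -3.37 points (exact permutation p = 0.619). The DEP mean was lower although more autosomal bins were called replicated in the DEP embryos. Without embryo 6 the difference turned to 1.83 points, and with the bins of long single-state runs left out it was 4.24 points. In cells of 55 to 63% the early bins were 95.8% ± 1.71 replicated in mEmb04C and 81.1% ± 10.3 in DEP embryos (SD, n = 3 each, exact permutation p = 0.1). There the embryos did not overlap in early bins either, at 94.04 to 97.4% in mEmb04C and 70.1 to 90.5% in DEP, with a difference of -14.8 points. These cells were chosen at like totals, so a higher share in late bins has to go with a lower share elsewhere. The early-bin and late-bin differences in this range are thus not separate observations. All 5 DEP cells of this range held single-state runs of at least 30 Mb, 32 in all, and the 4 mEmb04C cells held 0. The 2 cells of embryo 7, which had no such run, lay above the range. Leaving out the runs was not tested within this range.

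The early percent minus the late percent measures how sharply a profile follows the 8-cell order. It was 89.4, 79.2, 79.0, 74.6 and 62.2 points in mEmb04C embryos 9, 10, 11, 13 and 14 and 39.2, 63.7, 32.9 and 68.6 points in DEP embryos 1, 3, 6 and 7. The DEP embryos fall into a lower pair, 1 and 6, and a pair, 3 and 7, within the mEmb04C range. The means were 76.9 ± 9.84 (SD, n = 5) and 51.1 ± 17.7 points (SD, n = 4), and the difference of -25.8 points had an exact permutation p of 0.0476, again with no adjustment for position in S phase. Leaving out any 1 embryo other than embryo 14 took this p to between 0.0714 and 0.107, with differences of -31.6 to -19.7 points over all 9 such omissions. Over all mid-S embryos the sets did not overlap in 2 of the 3 intermediate classes of the 8-cell order. In bins replicated in 20 to 40% of 8-cell cells, the mEmb04C embryos had 19.7 to 36.7% and the DEP embryos 50.05 to 62.7%, and in the class of 40 to 60% they had 29.3 to 55.03% and 56.98 to 80.97%. The set means differed by 26.1 and 22.8 points in these 2 classes, against 22.4 points in late bins. In the class of 60 to 80% the embryos overlapped, at 41.3 to 79.9% and 66.3 to 92.9%. In cells of 55 to 63% the class of 20 to 40% overlapped, at 36.3 to 49.9% in mEmb04C and 45.3 to 55.3% in DEP embryos. In the same cells the class of 40 to 60% had means of 63.03% ± 5.57 in mEmb04C and 62.9% ± 8.25 in DEP embryos (SD, n = 3 each).

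**Figure D2:**
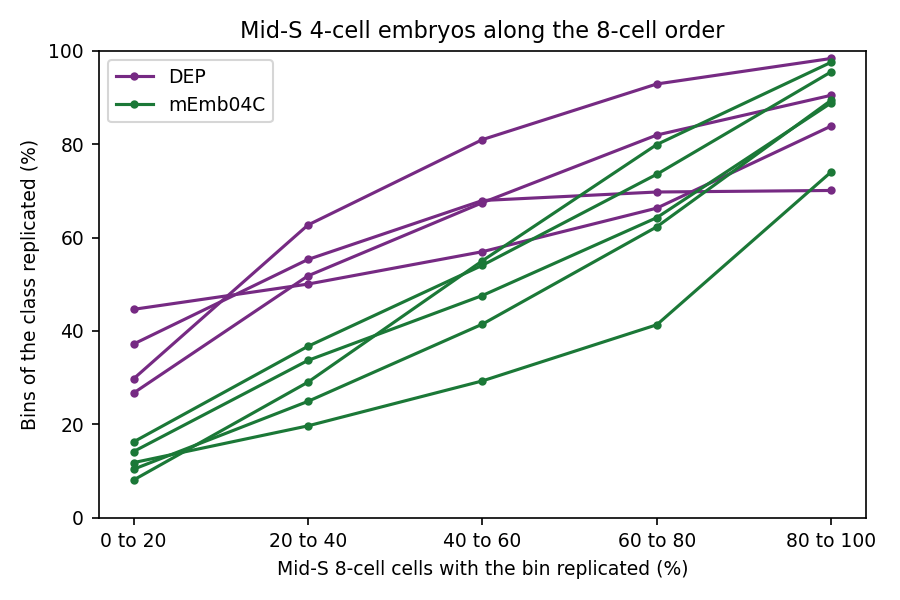
Replicated percent of bins in 5 classes of the 8-cell order, from late (left) to early (right), 1 line per mid-S 4-cell embryo. The 4 DEP lines start at 26.7 to 44.6% and the 5 mEmb04C lines at 8.09 to 16.3%, and the lines overlap in the earliest class.

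The difference in late bins was spread over the chromosomes. All DEP embryos were above all mEmb04C embryos in the late bins of 15 of 19 autosomes (78.9%), and in the early bins of 0 of 19 (0%). The exceptions for late bins were autosomes 5, 7, 10 and 13. On autosome 10 the late bins were 37.996, 30.4, 0 and 35.1% replicated in DEP embryos 1, 3, 6 and 7 and 7.05 to 15.9% in mEmb04C embryos, so that embryo 6 alone overlapped. On autosome 19 the late bins of DEP embryos were 31.3 to 69.3% replicated against 5.36 to 16.1%, with the highest mean difference of the 19, 35.3 points. On autosomes 1, 4, 8, 11, 12 and 19 embryo 6, at 46.3 to 50%, averaged cells b and d in opposite states. On each, 1 cell had at least 97.0% of the whole autosome replicated and the other at most 0.0673%. Embryo 6 thus lay above the mEmb04C embryos there only as an average of its cells. DEP embryos 1, 3 and 7 lay above them as well. Both cells of embryo 6 also fell within the range of 55 to 63%. In cells of 55 to 63% the DEP mean was higher in the late bins of 19 of 19 autosomes, by 14.8 points at the median autosome, and higher in the early bins of 3 of 19, with a median of -14.6 points. These autosomes share their cells and are not independent of each other. The early and late bins of these cells are also tied, because the cells were chosen at like totals.

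Along the autosomes, 2382 windows of 1 Mb had values in enough embryos to be tested. No window passed an adjusted p of 0.05 (0% called with DEP higher and 0% with DEP lower) in limma with Benjamini-Hochberg adjustment, with the embryo's autosomal percent as a covariate. The smallest adjusted p was 0.312. At an unadjusted p under 0.05 there were 123 windows with DEP higher (5.16%) and 142 with DEP lower (5.96%). Because the mid-S embryos of the sets do not overlap in autosomal percent, the covariate separates the sets almost as the set itself does, and the median half-width of the 95% intervals was 45.4 points. Without the covariate 31 of the 2382 windows passed, all with DEP higher. Windows of 0.5 Mb gave 2 of 4762 with DEP higher.

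Without any adjustment for S phase, the embryos of the sets did not overlap in 132 windows with DEP higher (5.54%) and in 3 with DEP lower (0.126%). In cells of 55 to 63% the split was less one-sided, with 98 of 2217 windows higher (4.42%) and 46 lower (2.07%). All 5 DEP cells there, and none of the mEmb04C cells, held single-state runs of at least 30 Mb. The lower windows lay toward early bins and the higher ones toward late bins. In cells of like autosomal percent, windows replicated further have to be offset by windows replicated less. In the cells of 55 to 63%, 529 windows had bins replicated on average in at most 20% of 8-cell cells. Of these, 47 were higher (8.88%) and 3 lower (0.567%). Of 540 windows above 80%, 1 was higher (0.185%) and 15 lower (2.78%). Of 347 windows of 60 to 80%, 5 were higher (1.44%) and 16 lower (4.61%).

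**Figure D3:**
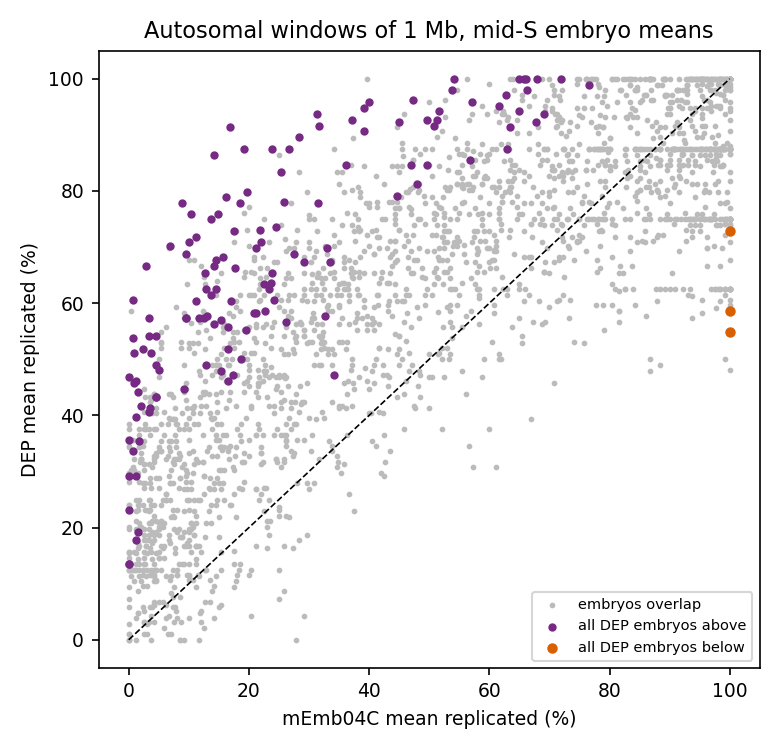
Mean replicated percent of each 1-Mb autosomal window in mid-S mEmb04C embryos (x axis) and mid-S DEP embryos (y axis), with windows in which the sets do not overlap in colour; the dashed line marks equal means. The 132 windows with all DEP embryos above lie toward low mEmb04C means, and the 3 with all DEP embryos below lie where all mEmb04C embryos are at 100%.

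The 5 higher windows with the largest fitted difference, on mm9, were chr3:82000001-83000000, chr6:12000001-13000000, chr7:91000001-92000000, chr9:116000001-117000000 and chr17:14000001-15000000. None of them passed the adjustment. In the window of chromosome 7 the mEmb04C embryos 9, 10, 11, 13 and 14 had 0, 26.9, 19.2, 38.5 and 0% replicated and the DEP embryos 1, 3, 6 and 7 had 80.8, 84.6, 100 and 100%. The fitted difference was 62.6 ± 36.3 points (95% interval half-width, limma adjusted p = 0.358), and it was 74.4 points without the covariate (limma adjusted p = 0.0170). In the window of chromosome 17 the mEmb04C embryos had 25, 12.5, 12.5, 20.8 and 25% and the DEP embryos 100, 50, 100 and 100%. Its fitted difference was 68.9 ± 44.2 points (limma adjusted p = 0.358). In the window of chromosome 9 the DEP embryos had 50 to 66.7% and the mEmb04C embryos 0, 0, 0, 14.6 and 41.7%, and the fitted difference was 70.5 ± 31.6 points (limma adjusted p = 0.320). The fitted differences in the windows of chromosomes 3 and 6 were 78.8 ± 46.5 and 75.6 ± 53.1 points, and the set means differed by 53.1 and 60.6 points. The lowest DEP embryo, embryo 7, had 41.7 and 29.2% there. The highest mEmb04C embryo had 33.3 and 27.1%. With a mid-S range of 20 to 80% the fitted differences were 60.4, 13.9, 31.9, 46.3 and 29.6 points in the windows of chromosomes 3, 6, 7, 9 and 17.

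Windows without overlap mostly stood alone. The 132 higher windows formed 118 stretches, of which 108 were a single window and 3 were of at least 3 Mb. The longest was chr17:7000001-11000000, 4 Mb in which mEmb04C embryos were 43.8% ± 12.6 replicated (SD, n = 5) and DEP embryos 89.0% ± 7.53 (SD, n = 4). The others were chr7:89000001-92000000, at 13.3% ± 13.6 and 76.1% ± 12.4, and chr11:110000001-113000000, at 9.27% ± 5.86 and 54.9% ± 5.60 with 3 DEP embryos measured. Embryo 3 was not measured in the stretch of chromosome 11, and its cell b held an unreplicated run over chr11:52000001-118880000. The 50% of embryo 6 in that stretch averaged an unreplicated run in cell b and a replicated run in cell d.

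The 3 lower windows were chr10:79000001-80000000, chr11:97000001-98000000 and chr14:27000001-28000000, and all 5 mEmb04C embryos were at 100% in each. In the window of chromosome 10 the DEP embryos 1, 3, 6 and 7 had 69.2, 96.2, 0 and 69.2%. In the window of chromosome 11 they had 88.5, 0, 50 and 80.8%, and in that of chromosome 14 they had 50, 95.8, 50 and 95.8%. The 0% of embryo 6 on chromosome 10 and of embryo 3 on chromosome 11 lay within unreplicated runs of at least 30 Mb, and the value of embryo 3 came from cell b alone, since cell a has no called bin there. The 50% of embryo 6 on chromosomes 11 and 14 averaged such an unreplicated run in cell b and a replicated run of that length class in cell d. None of the 3 passed the adjustment (limma adjusted p = 0.451 to 0.456). With a mid-S range of 20 to 80% the fitted differences of -60.7, -59.5 and -40.9 points on chromosomes 10, 11 and 14 became -40.7, -43.98 and -24.1 points. The fitted difference was -15.9 points on chromosome 10 without embryo 6, -37.1 points on chromosome 11 without embryo 3 and -25.7 points on chromosome 14 without embryo 6.

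Narrow intervals were found mainly where all embryos were near 100% or 0%. The mean profiles of the sets correlated with r = 0.810 over the 2382 windows, a description of 2 profiles built from the same windows, and by autosome r ran from 0.600 on autosome 11 to 0.903 on autosome 15. The 95% interval of the fitted difference lay within 20 points in 43 windows, 35 of them among the 573 windows replicated in over 80% of 8-cell cells. Over that class of 573 the median fitted difference was -25.2 points, against 1.91 points in the windows of 40 to 60%. Without the fit, the means were 90.5% in mEmb04C and 85.4% in DEP embryos in that class, and 47.3 and 68.2% in the windows of 40 to 60%. The fitted values reach beyond the autosomal percents of each set, which do not overlap. All 9 embryos were at 100% in 9 windows. The 5 windows named for this, chr6:29000001-30000000, chr9:107000001-108000000, chr15:85000001-86000000, chr15:102000001-103000000 and chr16:4000001-5000000, were among them. Such an interval was found in 7 of the 577 windows replicated in at most 20% of 8-cell cells. The 5 named are chr6:105000001-106000000, chr7:77000001-78000000, chr7:102000001-103000000, chr15:24000001-25000000 and chr16:61000001-62000000, with set means of 0 to 1.04%. Over the 9 omissions the interval stayed within 20 points in 1 for chr6:105000001-106000000 and chr15:24000001-25000000, and in 5 for the others. With a mid-S range of 20 to 80% the fitted difference in the window chr15:24000001-25000000 was -29.7 points and that in chr16:61000001-62000000 was 8.53 points. Windows with a mean of at most 10% numbered 397 in mEmb04C, 73 in DEP and 54 in both, and those with a mean of at least 90% numbered 399, 347 and 155. The late end of the profile thus held fewer windows in DEP, whose embryos had more autosomal bins called replicated. In 1578 windows (66.2%) DEP embryos had a larger SD than mEmb04C embryos, and the median SD was 23.8 against 15.8 points. By autosome the median SD was lower in DEP embryos on autosomes 7 (12.5 against 16.002), 15 (15.6 against 16.3) and 17 (11.7 against 17.8). It was higher on the other autosomes, with the highest DEP values on autosomes 10 (45.02), 13 (43.7) and 11 (36.1). On these last autosomes embryos 3 or 6 held long single-state runs. Whether DEP embryos varied more without these embryos or runs was not tested.

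By whole autosome, relative to the autosomal percent of the same cell, 0 of 19 autosomes passed an adjusted p of 0.05 in limma (0% in either direction). One autosome had an unadjusted p under 0.05, and the sets overlapped on all 19. That autosome was 11, which mEmb04C embryos replicated ahead of the genome by 13.9, 16.7, 15.005, 12.4 and 18.2 points (embryos 9, 10, 11, 13 and 14). DEP embryos 1, 3, 6 and 7 were at 20.5, -6.13, -6.93 and 6.53 points. The difference was -11.8 points (95% interval -23.4 to -0.124, limma adjusted p = 0.493), and it was -17.4 points without embryo 1 (limma adjusted p = 0.0161). With the bins of single-state runs of at least 30 Mb left out it was -2.48 points (limma adjusted p = 0.746). Autosomes 10 and 5 followed with -11.1 and -6.06 points, and autosome 10 turned to 3.52 points without embryo 6. The largest positive differences were 7.83 points on autosome 18, 5.80 on autosome 7 and 5.36 on autosome 6 (limma adjusted p = 0.493, 0.600 and 0.493). Without embryo 6 the differences were 4.48 points on autosome 18, 3.18 on autosome 6 and -3.37 on autosome 5. Without embryo 1 they were 12.6 points on autosome 18 and 3.57 on autosome 7, and autosome 7 was at 9.37 points without embryo 7.

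**Figure D4:**
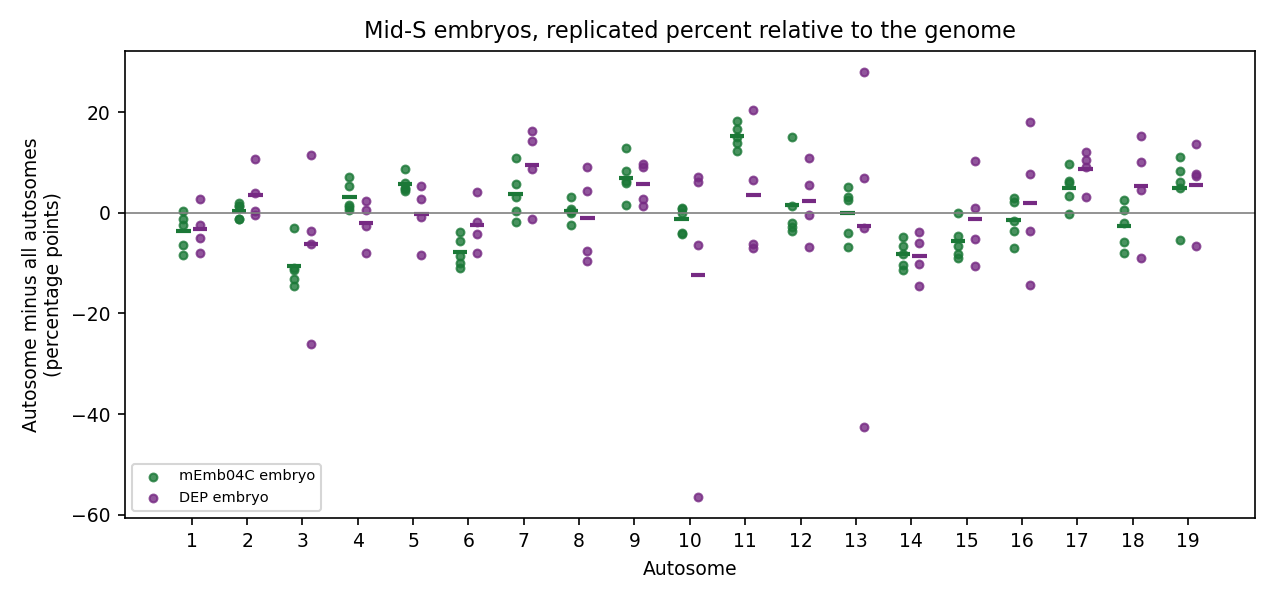
Replicated percent of each autosome minus that of all autosomes in the same cell, averaged per mid-S embryo; points are embryos and bars are set means. The mEmb04C points stay within 20 points of 0, and DEP points reach -56.4 on autosome 10 and -42.5 and 28.03 on autosome 13.

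Values beyond 20 points from the genome occurred in DEP embryos only, among the 9 mid-S embryos. Embryo 1 had -26.1 on autosome 3 and 20.5 on autosome 11, embryo 3 had -42.5 on autosome 13, and embryo 6 had -56.4 on autosome 10 and 28.03 on autosome 13. On autosome 13 the set means, 0.0271 and -2.62 points, hid opposite values in embryos 3 and 6. The SD over the 19 autosomes was 11.6, 12.5, 17.7 and 5.38 points in embryos 1, 3, 6 and 7, and 5.25 to 8.30 points in mEmb04C embryos. Embryo 7 thus lay near the mEmb04C embryos and the other DEP embryos above them.

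The chromosome ends, the outermost 10 Mb with called bins, were also compared relative to the genome. Proximal ends, which lie beside the centromere of mouse chromosomes, were at -3.17, 0.413, -2.29, 1.83 and -3.001 points in mEmb04C embryos 9, 10, 11, 13 and 14. They were at -1.25, 8.66, 5.33 and 3.01 points in DEP embryos 1, 3, 6 and 7. The difference of 5.18 points had an exact permutation p of 0.0635 (0.127 adjusted over both ends). With the autosomes of a cell that hold a long run left out it was 6.80 points (adjusted exact permutation p = 0.0317), and in cells of 55 to 63% it was 2.48 points (exact permutation p = 0.7). Distal ends were ahead of the genome in both sets, by 7.82 ± 2.86 points (SD, n = 5) and 6.99 ± 3.29 points (SD, n = 4), with an exact permutation p of 0.683.

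Long single-state runs, stretches of at least 30 Mb of called bins in 1 state, were compared as well. The mid-S mEmb04C cells had 0 such runs and the mid-S DEP cells 34, in 6 of 8 cells, of which 17 were replicated and 17 not. They took up 4.02, 3.80, 40.1 and 0% of called bins in embryos 1, 3, 6 and 7, a mean of 11.98% ± 18.8 (SD, n = 4) against 0 in each mEmb04C embryo (exact permutation p = 0.0952). Embryo 6 held 26 of the 34 runs, and the 2 cells of embryo 7 had none. Outside mid-S, mEmb04C cells also held such runs, 23 in embryo 8 and 3 in embryo 12. Changes of state per 1000 called bins, a base value for these runs, were 57.01 ± 7.10 in mEmb04C (SD, n = 5) and 38.9 ± 14.97 in DEP embryos (SD, n = 4, exact permutation p = 0.0476). Leaving out any 1 embryo other than embryo 9 took this p to between 0.0714 and 0.107, and the difference of -18.2 was -11.7 without embryo 6. With the bins of the runs left out, the late-bin difference was 22.5 points (exact permutation p = 0.0159). The noise score of the authors' table, a median absolute deviation, was 0.540 to 0.640 in mid-S mEmb04C cells and 0.523 to 0.805 in mid-S DEP cells, highest in the 2 cells of embryo 6, and its part in these results was not tested.

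**Figure D5:**
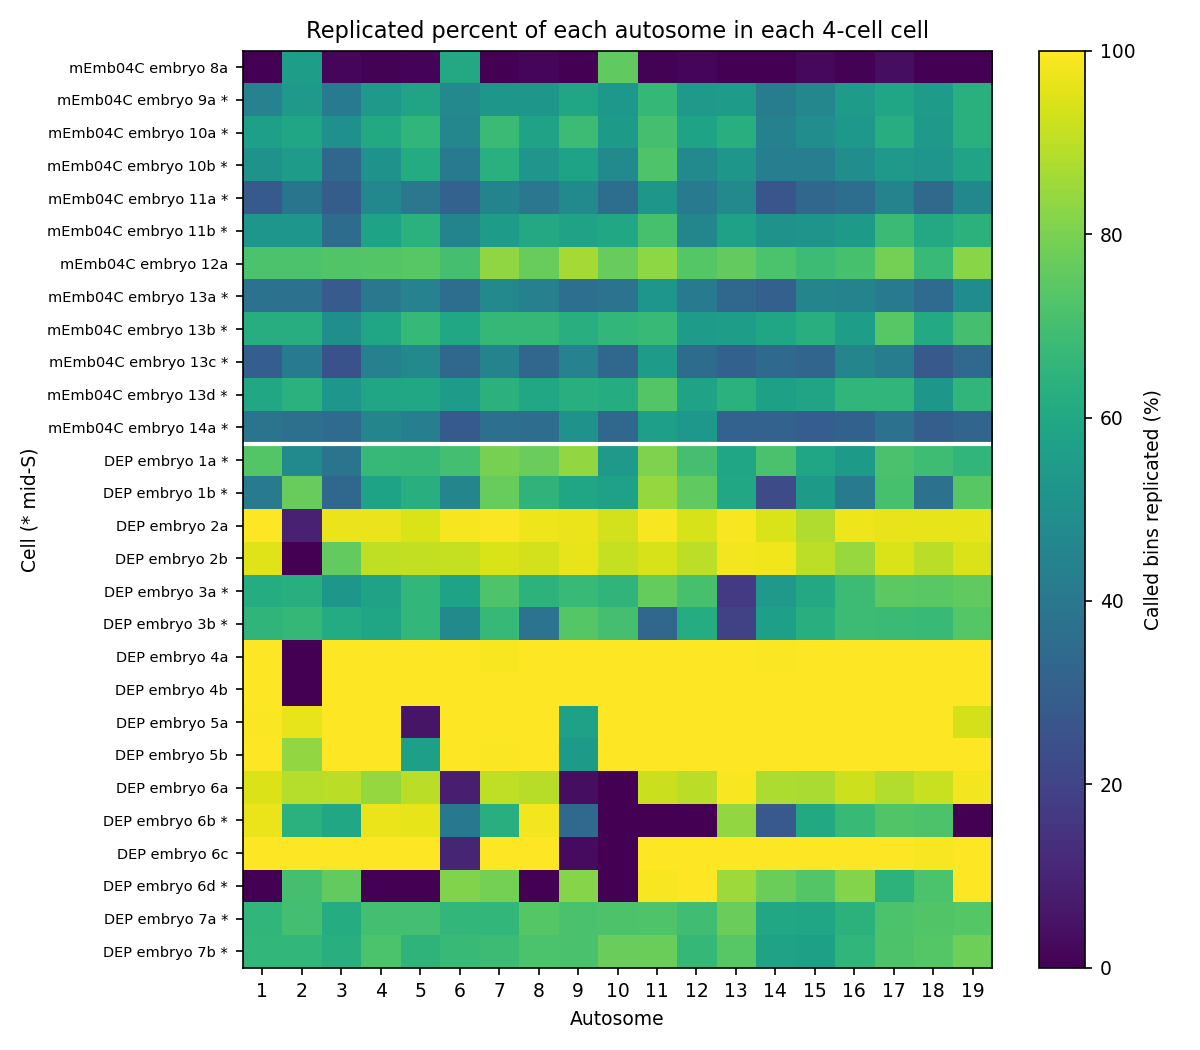
Replicated percent of each autosome (columns) in each 4-cell cell (rows, mid-S cells starred), mEmb04C above the white line and DEP below. DEP embryo 4 has 18 autosomes at 98% or more beside an autosome 2 called unreplicated in both cells. Embryo 6 has an autosome 10 called unreplicated in all 4 cells.

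Whole autosomes in 1 state, at 98% or more or at 2% or less, were shared by all cells of an embryo in DEP embryos 2, 4, 5 and 6. In embryo 4 both cells had 18 autosomes at 98% or more and autosome 2 at 0.136 and 0%. Their profiles differed in 0.0271% of bins, and they entered as 1 embryo, outside mid-S. In embryo 6 autosome 10 was at 0 to 0.252% in all 4 cells. States are read from copy number, and whether these autosomes differed in copy number apart from replication was not tested. Other autosomes were low in both sister cells without being in 1 state in both. In embryo 2 autosome 2 was at 9.32 and 0.254% in cells with 90.3 and 85.5% of all autosomal bins replicated. In embryo 3 autosome 13 was at 17.1 and 19.7%.

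Sister cells could also be opposite. In the mid-S cells b and d of embryo 6, 4 autosomes were at 98% or more in 1 cell and at 2% or less in the other, autosome 8 replicated in b and autosomes 11, 12 and 19 in d. The 2 profiles differed in 50.3% of bins (phi, a correlation of binary states, -0.0276). Autosomes 1, 4 and 5 were at 0% in cell d and at 96.4 to 97.1% in cell b. Among mEmb04C sister pairs in mid-S, phi was 0.439 to 0.582 over 8 pairs. The other mid-S DEP sister pairs had 0.395 in embryo 1, 0.543 in embryo 3 and 0.641 in embryo 7. Mid-S cells of different embryos had a mean phi of 0.513 in mEmb04C (37 pairs) and 0.264 in DEP (24 pairs), where pairs share cells and these values are a description. Outside mid-S, mEmb04C embryo 8, at 12.6% replicated, had 14 autosomes in the unreplicated state, and no mEmb04C cell had an autosome at 98% or more.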

How the data were processed

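Per the labels' protocols, blastomeres were taken singly by micromanipulation and their genomic DNA was amplified before library construction. The deposited profiles give a binary state (1, -1 or 0 for no call) per bin of 80 kb, and the deposited cell table gives a replication score in percent and a noise score per cell, per the file headers. Per the submitters' processing notes the profiles are on mm9, with aligner and caller not given in the sources used here. State 1 was read as replicated, because its share among an autosomal profile's calls matches the deposited percent to within 4.92e-09. Profile columns matched to no sample numbered 0.

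Cell values were averaged per embryo. Single values were tested by two-sided exact permutation of embryo labels. Windows of 1 Mb (at least 6 called bins in a cell, values in at least 4 mEmb04C and 3 DEP embryos) and 19 autosomes were tested with limma 3.58.1 in R 4.3.3 and Benjamini-Hochberg adjustment, which were tested on simulated data. Named windows were, per direction, the 5 with the largest fitted difference among those that passed, filled where fewer passed with windows in which the embryos of the sets do not overlap. Named for agreement were the 5 earliest and 5 latest among those with a 95% interval within 20 points. Named autosomes were the 3 with the largest difference in each direction, any that passed, and embryo values beyond 20 points. Members, lists and tests were chosen with earlier results of these data known. Alternatives changed the embryos, title sets, mid-S range, runs, windows, covariate, thresholds and test. Chromosome X was left out. Other steps ran in Python 3.11.15 with pandas 2.3.3 and numpy 2.4.6, and scipy 1.17.1 served the simulated check.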

Additional observations from a re-analysis of the deposited data

Results flagged for a closer look

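Of 27 groups of 4 to 7 embryo values examined for a value far from the others, 1 had such a value, and chance gives about 1 in 20 groups. It was the percent of called bins in single-state runs of at least 30 Mb in DEP embryo 6, 40.1%, against 0 to 4.02% in the other 3 mid-S DEP embryos. The gap to the next embryo was 0.900 of the range of the group, above the critical value of 0.829 for 4 values.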

How the results depend on the processing

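No paired analysis was possible because the replicate numbers of the titles only name cells and pair no embryo of one set with one of the other. Late bins were replicated further in DEP embryos under all 20 alternatives, by 15.6 to 25.05 points, and the difference passed in 15. All 15 kept the main mid-S range, in which the embryos of the sets do not overlap in autosomal percent. These passes thus do not separate the late-bin difference from position in S phase. The exact permutation p of the late-bin difference was above 0.05 with DEP_01_164 alone (21.3 points) or DEP_01_162 alone (23.5 points) as the DEP set. It was also above 0.05 with mid-S ranges of 20 to 80% (18.4), 40 to 60% (20.3) and 55 to 63% (15.6). Of these settings, all but the range of 20 to 80% cannot reach 0.05 with so few embryos. The order contrast kept its direction under all 20 and passed in 5. It missed the threshold with DEP_01_164 (-26.2 points) or DEP_01_162 alone (-25.4), ranges of 20 to 80% (-22.1), 40 to 60% (-36.1) and 55 to 63% (-30.4), bins of long runs left out (-18.3) and autosomes of a cell with a long run left out (-16.3), and over single omitted embryos it was -31.6 to -19.7. Changes of state passed in 2 of 16. They missed it with DEP_01_164 (-23.3 per 1000 bins) or DEP_01_162 alone (-13.0), ranges of 20 to 80% (-16.0), 40 to 60% (-20.1) and 55 to 63% (-26.0) and autosomes with a long run left out (-13.9), and over single omitted embryos they were -22.9 to -11.7. The early-bin difference turned positive with bins of long runs (4.24 points) or their autosomes (4.55) left out and was -7.59 to 1.83 over single omitted embryos. The distal-end difference turned positive with DEP_01_162 alone (0.716 points), the range of 55 to 63% (0.459) and autosomes with a long run left out (0.217), and was -2.20 to 0.411 over single omitted embryos. The proximal-end difference passed with autosomes of a long run left out (6.80 points). The percent in long runs passed with a minimum of 20 Mb (14.5 points) and was 2.61 to 16.0 over single omitted embryos, passing without embryo 7. The replicated-percent difference missed the threshold with DEP_01_162 alone (23.1 points, exact permutation p = 0.1) and was 23.3 to 33.8 over single omitted embryos. The count of windows that passed was 31 without the covariate, 2 with windows of 0.5 Mb, 1 with bins of long runs left out and 0 under the other 20 alternatives. The count of autosomes was 1 without embryo 1 and otherwise 0, so it ranged from 0 to 1 over single omitted embryos. Autosome 10 turned positive without embryo 6 (3.52 points, the highest over single omitted embryos, with -17.7 the lowest), with DEP_01_162 alone (1.59) and with autosomes of a long run left out (2.50), autosome 6 turned negative with the range of 20 to 80% (-1.21) and autosome 18 with 40 to 60% (-1.11). Apart from the omissions named, which leave fewer embryos or bins, the cause of these changes was not tested. The range of 55 to 63% and the omission of autosomes with a long run, and of embryos 4 and 5, were chosen after seeing the data.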
